A study of Mus musculus with 2 samples.

Results

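Of the 3373 Suz12 peaks in wild-type mouse cells, 413 (12.2%, 95% interval 11.2 to 13.4%) lay inside the body of a protein-coding gene and away from gene ends. They were chosen by position alone: each overlaps a protein-coding gene body of the RefSeq annotation and lies more than 2.5 kb from either end of every protein-coding gene and of every lncRNA gene. They are called intragenic peaks here, and the 359 protein-coding genes that hold them are called host genes. All 413 peaks lay wholly inside a gene body, and 3 of them lay in a pair of overlapping hosts: 1 in Ctnna2 and Lrrtm1, and 2 in Otop2 and Ush1g. Of the other peaks, 2510 overlapped or lay within 2.5 kb of a protein-coding gene end, 209 did so only for a lncRNA end, and 241 lay outside protein-coding genes and away from both kinds of end. Intervals on shares are exact (Clopper-Pearson) binomial intervals. They cover counting error only and treat peaks and genes as independent, which neighbours are not.

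Suz12 belongs to the core of PRC2, a Polycomb complex that adds methyl groups to histone H3 and helps to keep developmental genes silent. In embryonic stem cells PRC2 is best known at CpG islands, stretches of DNA dense in CG pairs that cover many promoters. Many genes also carry alternative promoters inside their body, some of them CpG islands, and a protein bound there lies far from the outer ends that an annotation gives for the gene.

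The library is Suz12 ChIP-seq from wild-type E14 cells, an established mouse embryonic stem cell line, after 72 h in serum medium that contained 1 µM all-trans-retinoic acid and no leukemia inhibitory factor (LIF), which in culture keeps such cells from differentiating. The series also labels a Suz12-KO library at 0 h, which was not analysed here. By its title the study asks how gene silencing relates to PRC2 at CpG islands. With 1 library of 1 cell line there is no replicate error, no comparison between conditions was made and no p-value is given. The deposited list holds no read counts, so the depth is unknown. Each peak carries a score given by the authors, whose scale the file does not state. By the convention of MACS for such lists it is a scaled negative logarithm of a p-value. Scores pile up at 3100, the value of 325 peaks, and 30 more lie above it, so a score above 3100 does not rank a peak over another at 3100.

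The peaks were read first against transcription starts inside genes, where CpG content can be seen letter by letter. RefSeq start windows of GRCm38.p6, each from 250 bases before to 50 bases after an annotated start, are shown here for genes in which a start inside an intragenic peak can be read beside a start outside it. Each is written 5′ to 3′ on the strand of the gene, with every CG pair in capitals.
Runx1, first listed start, outside the peaks, chr16:92826025-92826324, minus strand: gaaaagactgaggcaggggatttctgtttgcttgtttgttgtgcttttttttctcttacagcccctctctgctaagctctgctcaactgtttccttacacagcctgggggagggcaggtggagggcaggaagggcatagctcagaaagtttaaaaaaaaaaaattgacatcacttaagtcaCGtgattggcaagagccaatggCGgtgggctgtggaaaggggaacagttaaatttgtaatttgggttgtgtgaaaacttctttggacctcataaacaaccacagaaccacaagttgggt
Runx1, internal start, inside a peak, chr16:92697280-92697579, minus strand: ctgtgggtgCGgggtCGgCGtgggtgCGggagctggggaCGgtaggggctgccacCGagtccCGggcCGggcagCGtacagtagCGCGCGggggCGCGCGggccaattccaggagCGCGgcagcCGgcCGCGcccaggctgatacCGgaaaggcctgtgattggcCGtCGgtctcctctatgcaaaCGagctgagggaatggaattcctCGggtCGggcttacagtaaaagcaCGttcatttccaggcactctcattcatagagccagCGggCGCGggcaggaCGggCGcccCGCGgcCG
Runx3, first listed start, outside the peaks, chr4:135120395-135120694, plus strand: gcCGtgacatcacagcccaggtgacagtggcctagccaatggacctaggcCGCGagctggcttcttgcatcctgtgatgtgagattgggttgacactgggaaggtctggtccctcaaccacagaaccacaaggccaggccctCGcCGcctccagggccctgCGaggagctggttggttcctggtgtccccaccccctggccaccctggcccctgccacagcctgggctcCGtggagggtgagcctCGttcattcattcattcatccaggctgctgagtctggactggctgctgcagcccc
Runx3, internal start, inside a peak, chr4:135152295-135152594, plus strand: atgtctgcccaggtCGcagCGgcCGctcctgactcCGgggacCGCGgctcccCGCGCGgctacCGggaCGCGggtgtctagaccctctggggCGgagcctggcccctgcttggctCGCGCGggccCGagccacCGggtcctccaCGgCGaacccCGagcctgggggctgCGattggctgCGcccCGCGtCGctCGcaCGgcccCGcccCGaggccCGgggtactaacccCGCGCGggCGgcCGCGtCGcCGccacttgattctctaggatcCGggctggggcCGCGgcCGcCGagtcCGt
Cacna1c, a start near the gene's outer end, outside the peaks, chr6:119196360-119196659, minus strand: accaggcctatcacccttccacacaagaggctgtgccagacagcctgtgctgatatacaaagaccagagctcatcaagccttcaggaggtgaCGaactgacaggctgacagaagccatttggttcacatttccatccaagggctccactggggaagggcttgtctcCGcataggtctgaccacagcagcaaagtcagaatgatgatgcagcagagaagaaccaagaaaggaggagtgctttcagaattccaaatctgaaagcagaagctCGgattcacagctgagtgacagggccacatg
Cacna1c, internal start, inside a peak, chr6:119108446-119108745, minus strand: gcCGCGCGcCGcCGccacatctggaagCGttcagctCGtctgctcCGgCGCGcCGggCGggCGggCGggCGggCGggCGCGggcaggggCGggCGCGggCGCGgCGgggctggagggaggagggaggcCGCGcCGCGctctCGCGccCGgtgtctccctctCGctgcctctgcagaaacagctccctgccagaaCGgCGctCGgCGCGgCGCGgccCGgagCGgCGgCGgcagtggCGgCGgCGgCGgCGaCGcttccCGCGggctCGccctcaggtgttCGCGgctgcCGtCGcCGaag

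In Runx1, a transcription factor of blood stem cells, the outer start held 2 CG pairs and the internal start, 128.7 kb downstream, held 35. The outer start had no Suz12 peak. The internal start lay in a peak of 5380 bp (chr16:92695074-92700453) with a score of 1881. Runx3, a factor of T cells and sensory neurons, had the same layout: its outer start held 8 CG pairs and no peak, and its internal start, 31.9 kb downstream, held 45 and lay in a peak of 3954 bp with a score of 2051. In Cacna1c, a pore subunit of voltage-gated calcium channels, the covered internal start lay 88.9 kb from the gene's outer end. It held 57 CG pairs, the most of any start covered by an intragenic peak. The start shown near the outer end held 3, and the gene's other start outside the intragenic peaks held 7. The covered start lay in a peak of 2569 bp with a score of 1067.

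Other covered starts held few CG pairs. They are shown for Esrrb, a nuclear receptor of the pluripotency network, and for Nfix. Nfix is a nuclear factor I family member active in neural and muscle progenitors. Both were chosen because they lay in peaks at the top of the score range. Of the starts in the Nfix peak, the one shown held the fewest CG pairs.
Esrrb, internal start, inside a peak, chr12:86421394-86421693, plus strand: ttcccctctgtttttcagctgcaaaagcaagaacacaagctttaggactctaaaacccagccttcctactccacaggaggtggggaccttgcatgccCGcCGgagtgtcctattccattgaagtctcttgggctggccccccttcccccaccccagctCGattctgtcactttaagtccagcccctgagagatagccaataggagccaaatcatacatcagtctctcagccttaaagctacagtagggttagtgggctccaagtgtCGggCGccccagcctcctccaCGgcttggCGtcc
Nfix, internal start, inside a peak, chr8:84772826-84773125, minus strand: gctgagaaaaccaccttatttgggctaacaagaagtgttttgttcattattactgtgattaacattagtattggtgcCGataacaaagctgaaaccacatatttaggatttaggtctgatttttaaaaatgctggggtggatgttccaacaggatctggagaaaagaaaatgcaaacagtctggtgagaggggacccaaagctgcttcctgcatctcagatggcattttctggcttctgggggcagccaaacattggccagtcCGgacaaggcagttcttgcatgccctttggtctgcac

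The Esrrb start held 7 CG pairs, as many as that gene's outer start, and the Nfix start shown held 2. The same Nfix peak also covered starts with 9 and 4 CG pairs, and another Nfix peak covered a start with 13. The CpG observed/expected ratio, which divides the number of CG pairs in a window by the number its C and G content would give at random, was 1.01 at the internal starts of both Runx1 and Runx3, 1.16 at that of Cacna1c, 0.318 at that of Esrrb and 0.138 at the Nfix start. At the outer starts it was 0.137 for Runx1 and 0.264 for Runx3. At the other covered Nfix starts it was 0.458 (9 CG pairs), 0.164 (4) and 0.739 (13).

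Of the 2541 internal starts that the RefSeq table lists for protein-coding genes, 144 lay inside an intragenic peak (5.67%, 4.80 to 6.64%), in 115 genes. An internal start is a listed start more than 2.5 kb from every end used in the rule. The starts came from 1924 genes. Of the 413 intragenic peaks, 397 lie on chromosomes for which starts were used, and 118 of these (29.7%, 25.3 to 34.5%) covered an internal start. Of the 195 peaks whose host has an internal start in the table, 118 (60.5%, 53.3 to 67.4%) covered one. The remaining 279 of the 397 covered none, but 67 of them lay in hosts with no start in the table and could not cover one. Of the 330 peaks in hosts with a listed start of any position, 118 (35.8%, 30.6 to 41.2%) covered an internal start and 212 did not. A further 29 internal starts lay in peaks at protein-coding gene ends and 6 in peaks at lncRNA ends. They are counted below among the other internal starts, since covered there means inside an intragenic peak.

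The covered starts were rich in CpG. Their median CpG ratio was 0.727 (95% interval of the median 0.675 to 0.789, over 144 starts), against 0.313 (0.299 to 0.326) for the 2397 other internal starts. Their median number of CG pairs was 22.5 per window against 6, and their median G and C content 66.5% against 52.3%. With a ratio of at least 0.6 taken as CpG-rich, 109 of 144 covered starts (75.7%, 67.9 to 82.4%) were CpG-rich, against 594 of 2397 others (24.8%, 23.1 to 26.6%). Read the other way, an intragenic peak covered 109 of 703 CpG-rich internal starts (15.5%, 12.9 to 18.4%) and 35 of 1838 CpG-poor ones (1.90%, 1.33 to 2.64%). Neighbouring starts of 1 gene share sequence and often share a peak, so these intervals are too narrow, and no test was made.

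The share rose along the range of CpG ratios up to 0.6 and was level above it. It was 0.431% (3 of 696) at a ratio under 0.2, 1.19% (9 of 757) from 0.2 to 0.4 and 5.97% (23 of 385) from 0.4 to 0.6. Above that it was 15.9% (52 of 328), 14.3% (40 of 280) and 17.9% (17 of 95), values whose intervals overlap. First listed starts near gene ends, taken with peaks of any class, ran from 0.587% under 0.2 to 13.5% from 0.6 to 0.8, and then to 7.30% at a ratio of 1.0 and over. Over all ratios, 1319 of 16369 of those starts (8.06%) lay in a peak.

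**Figure D1:**
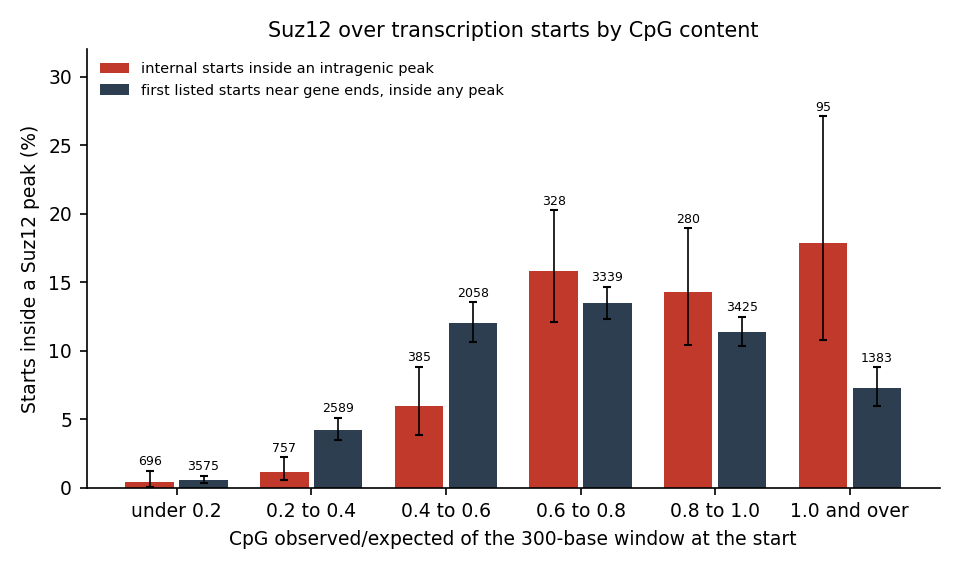
Share of annotated transcription starts inside a Suz12 peak (y axis, percent) by the CpG observed/expected ratio of the 300-base start window (x axis), for internal starts inside an intragenic peak (red) and first listed starts near gene ends inside any peak (dark). Bars are shares, whiskers exact 95% binomial intervals and the number over each bar is the number of starts. The internal share is 0.431% in the lowest bin and between 14.3% and 17.9% in the 3 highest.

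A start can count as internal because another start of its gene lies upstream, or because the annotated outer end of the gene reaches beyond the first listed start. Of the 144 covered starts, 91 lay downstream of another listed start and 53 were the first listed start of their gene. The CpG contrast held in each set: a peak covered 69 of 390 CpG-rich downstream starts (17.7%) and 22 of 1246 CpG-poor ones (1.77%), and 40 of 313 CpG-rich first listed starts (12.8%) and 13 of 592 CpG-poor ones (2.20%). Within genes, 66 of the 115 had listed starts both inside and outside intragenic peaks. In 44 of these 66 (66.7%, 54.0 to 77.8%) the most CpG-rich start inside a peak had a higher ratio than any start outside, as in Runx1, Runx3 and Cacna1c, and in the other 22 it did not. The median over the 66 genes of that highest ratio was 0.778 inside and 0.526 outside.

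Short motifs were searched in the start windows on both strands, with no matching on base composition. GGGCGG, the GC box, was found in 105 of the 144 covered windows (72.9%), in 31.0% of the other internal windows and in 46.7% of all 21045 listed windows. CGCGCG was found in 26.4%, 8.43% and 15.4% of these windows, and both motifs contain CG pairs and so overlap with the CpG ratio. TATAAA, the TATA box, was found in 5 covered windows (3.47%), against 12.6% of the other internal windows and 12.7% of all. CCAAT was found in 25.7%, 35.3% and 38.5%. A match is a run of letters, not evidence of a bound site.

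Intragenic peaks reached further into the transcribed side of a covered start than upstream of it. From the first start covered, they extended a median of 601 bp upstream and 1267 bp downstream, and further downstream than upstream in 93 of 118 (78.8%, 70.3 to 85.8%). Gene-end peaks over only 1 outer start extended 587 bp and 1339 bp, and further downstream in 1084 of 1266 (85.6%). The rule leaves out peaks that reach within 2.5 kb of a gene end, which limits upstream reach for starts near the gene's 5′ end. Measuring from the first of several covered starts also adds downstream length. How far these limits shape the values was not tested. Peaks over an internal start had a median width of 1911 bp (1647 to 2088) and a median score of 479 (362 to 702). The 212 over none, in hosts with a listed start, had a median width of 1554 bp (1439 to 1653) and a median score of 457 (369 to 551). Scores of 3100 or more were held by 11 of the 118 (9.32%, 4.75 to 16.1%) and by 7 of the 212 (3.30%, 1.34 to 6.68%), with intervals that overlap.

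Measured per length of DNA, Suz12 peaks were denser inside genes than between them. Intragenic space, all bases inside protein-coding gene bodies and over 2.5 kb from every counted end, took up 904 Mb, which is 34.6% of the 2612 Mb that run from the first to the last gene or peak on the chromosomes. It held 0.457 peaks per Mb, against 0.169 in intergenic space and 9.79 within 2.5 kb of gene ends. The intragenic peaks covered 0.822 Mb, or 0.0910% of intragenic space. Unsequenced gaps in the assembly are still counted in the intergenic stretch.

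The 413 intragenic peaks were on the whole narrower and lower in score than peaks at gene ends. Their median width was 1634 bp (1570 to 1730), within limits of 727 and 8738 bp, against 1921 bp (1875 to 1974) for gene-end peaks and 1478 bp (1371 to 1666) for intergenic peaks. Their score ran from 151 to 3198 with a median of 467 (391 to 539), against 623 (591 to 662) at gene ends and 405 between genes. A score of 3100 or more was held by 23 (5.57%, 3.56 to 8.24%), against 12.2% (10.9 to 13.5%) of gene-end peaks and 4.15% of intergenic peaks. A width over 5 kb was held by 16 (3.87%, 2.23 to 6.22%), against 7.65% of gene-end peaks. Among peaks scoring 150 to 300 the median width was 1160 bp in both classes. Among those scoring 300 to 1000 it was 1646 bp for intragenic and 1799 bp for gene-end peaks, and from 1000 to 3100 it was 2627 bp and 2837 bp. A peak counts as a gene-end peak if any of its bases lies within 2.5 kb of an end, so wide peaks fall into that class more easily. Scores rose with width, with rank correlations of 0.850 for intragenic and 0.896 for gene-end peaks. The contrasts in width and score are therefore partly set by the rule, and how far was not tested. Peaks are not replicates, and the differences between classes were not tested.

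**Figure D2:**
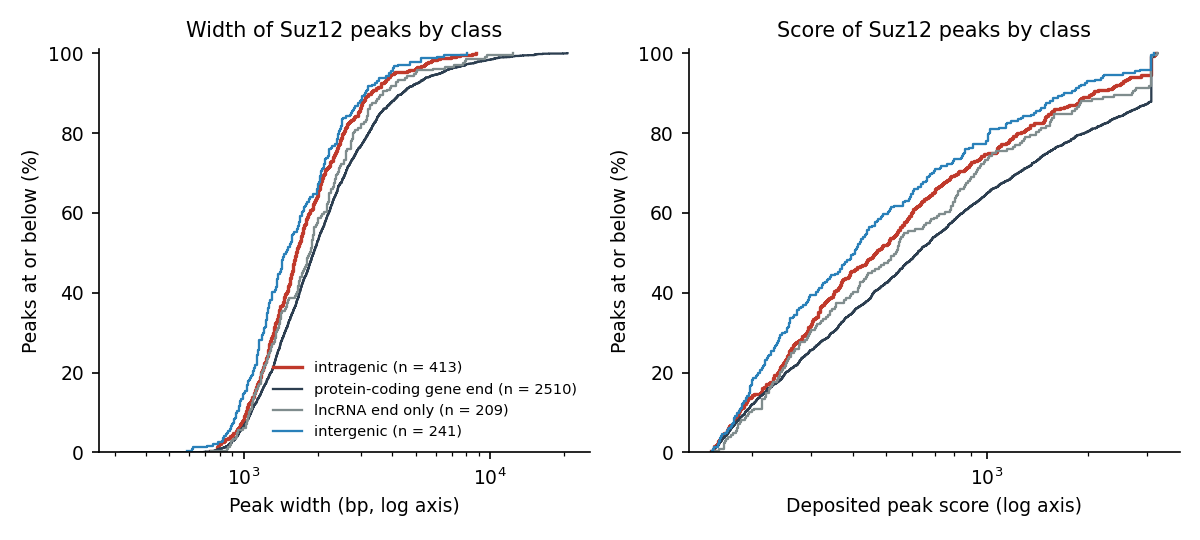
Cumulative share of Suz12 peaks (y axes, percent at or below) by width in bp (left, log axis) and by deposited score (right, log axis), for intragenic peaks (red, 413), protein-coding gene ends (dark, 2510), lncRNA ends only (grey, 209) and intergenic peaks (blue, 241). The intragenic curve lies between the intergenic and gene-end curves over most of its length, with medians of 1634 bp and 467. The vertical step at the right of the score panel is the pile-up at 3100.

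Of the 10 widest intragenic peaks, 8 lay in genes on the 2 lists of developmental transcription factors used here, as did 11 of the 23 with a score of 3100 or more and 70 of all 413 (16.9%, 13.5 to 20.9%). The widest, 8738 bp with a score of 3100, lay in Lhx4, a LIM-homeobox factor of the pituitary and motor neurons, 7.8 kb from the gene's outer 5′ end (chr1:155735189-155743926), and covered the only start that the table lists for the gene. Lhx4 had no peak at either outer end. Pax2, a paired-box factor of kidney and midbrain, held a peak of 8410 bp that began 9 bp from a gene-end peak. Lhx9, a LIM-homeobox factor of the gonad and limb, held a peak of 6902 bp that lay 280 bp from a gene-end peak. The nearest gene-end peak to that in Lhx4 was 459962 bp away.

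Nfix held 2 of the widest, of 7255 and 6103 bp with scores of 3100 and 3179, and a narrower peak of 1473 bp lay between them. Other peaks at a score of 3100 lay in Skor2 (6279 bp), a corepressor of cerebellar Purkinje cells, in Runx2 (5778 bp), the master factor of bone, in Sim1 (5759 bp) and Sim2 (3717 bp), bHLH-PAS factors of the hypothalamus and midline, in Nr5a2 (5026 bp), a nuclear receptor of early embryo and liver, and in Esrrb (3758 bp). Nr4a2, a nuclear receptor of dopamine neurons, held a peak of 7547 bp with a score of 2889.

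Genes with no role in transcription made up the rest of the top 20. Siglec15, a sialic acid-binding lectin of osteoclasts, held the highest score, 3198, in a peak of 2901 bp. Agap2, a GTPase-activating protein of neurons, held 3159 in a peak of 3857 bp. At 3100 were Otud7a (5477 bp), a deubiquitinase, Pdgfb (4672 bp), a platelet-derived growth factor chain, Slc30a3 (4608 bp), the zinc transporter of synaptic vesicles, Tnxb (3929 bp), an extracellular matrix tenascin, Shank1 (3833 bp), a postsynaptic scaffold, Myorg (3142 bp), a glycosidase, and Begain (3105 bp), a synaptic protein. The last 3 peaks at 3100, in Bcl11b (3005 bp), Spag6 (2792 bp) and Crybg1 (2599 bp), fell outside the naming rule and are given to complete the 23. Pde10a, the phosphodiesterase of striatal neurons, was among the 10 widest, with 5593 bp and a score of 1706.

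Most hosts held a single intragenic peak. Of the 359 hosts, 314 held 1 peak, 35 held 2, 8 held 3 and 2 held 4. Zic4, a zinc-finger factor of the cerebellum, held 4, with scores of 2022, 652, 267 and 231. Sptbn4, the spectrin of axon initial segments, held 4, with scores of 876, 811, 744 and 285, none of them over its listed starts. Among the genes with 3 were Nfix, Nr5a2, Gata4, Lmx1b, Bcor, Tbx5 and Exoc3l2. In Gata4, a factor of heart and endoderm, the scores were 2074, 1867 and 405, while the gene's best peak at an end scored 374. In Tbx5, a factor of heart and forelimb, the intragenic scores were 577, 299 and 243, and in Lmx1b, a LIM-homeobox factor of limb and dopamine neurons, 1495, 688 and 241. In Bcor, a corepressor that works with Polycomb Repressive Complex 1, they were 637, 251 and 231, and in Exoc3l2 560, 168 and 153. Neither Bcor nor Exoc3l2 had a peak at a gene end.

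**Figure D3:**
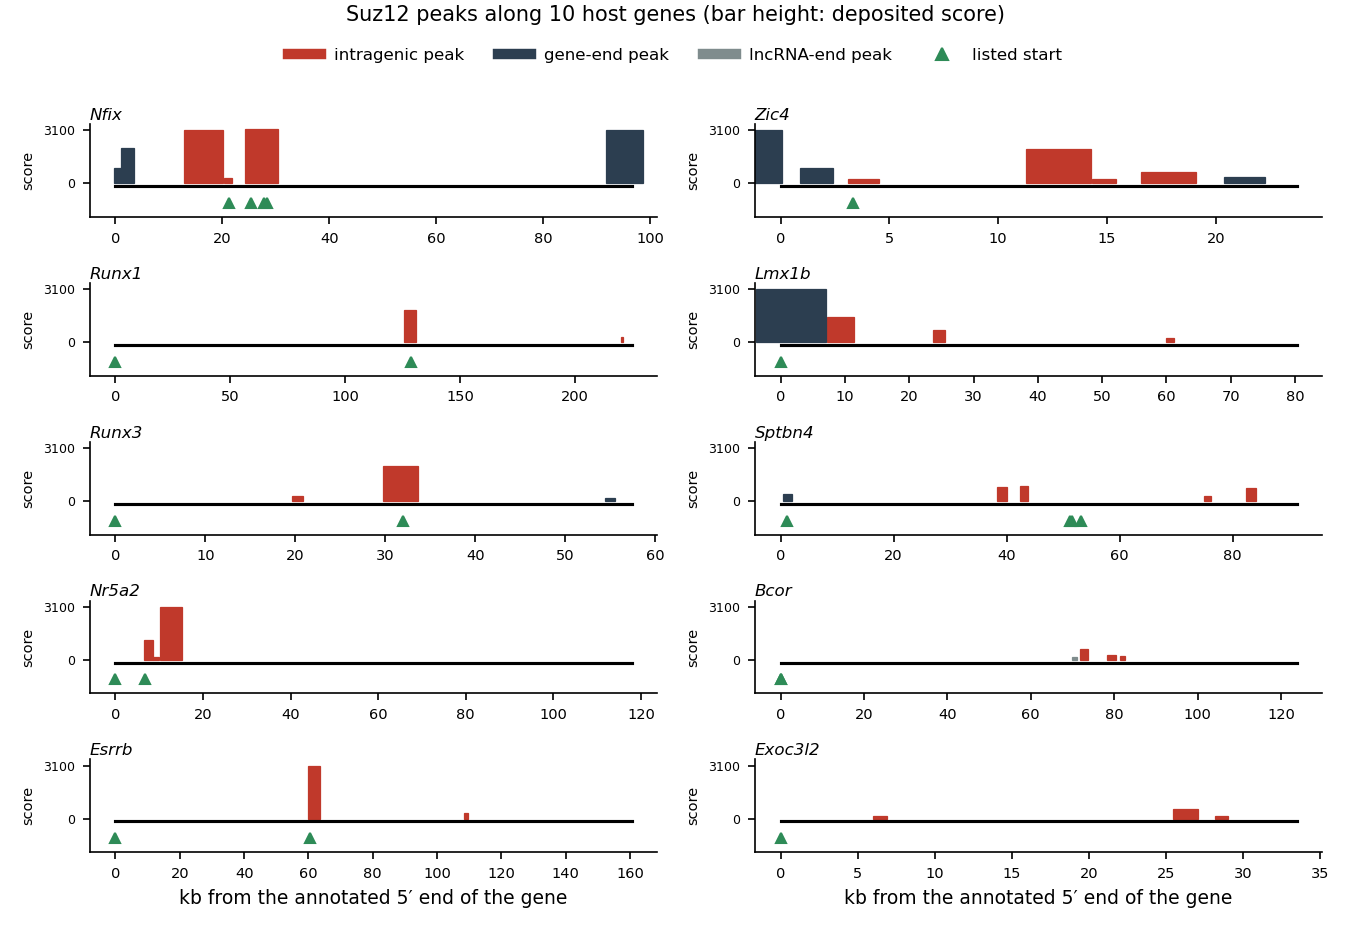
Suz12 peaks along 10 host genes, with kb from the annotated 5′ end of the gene on the x axes and the deposited score as bar height (y axes, from 0 to 3100). Red bars are intragenic peaks, dark bars gene-end peaks, grey bars lncRNA-end peaks, the black line is the gene and green triangles are listed starts. The dark bar at the left edge of Zic4 runs on beyond the plot. In Runx1, Runx3 and Esrrb the highest peak stands over an internal start and the outer start has none, in Nfix high peaks also stand at both outer ends and in Lmx1b at the 5′ end, and in Sptbn4 the 4 intragenic peaks miss the starts.

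Along the gene, intragenic peaks lay on both sides of the midpoint. Of 330 peaks whose host has a strand in the table, 184 (55.8%, 50.2 to 61.2%) lay before the gene's midpoint. The lower bound fell below 50% with 5 of the other settings, among them a distance of 5 kb (56.1%, 49.5 to 62.5%) and scores of at least 300.6 (53.6%, 46.8 to 60.2%). With each gene cut into 5 equal stretches from the start to the far end, these held 72, 83, 70, 62 and 43 peaks. The last stretch, at 13.0% (9.59 to 17.1%), held the fewest. The rule leaves out space within 2.5 kb of each end, which takes room mainly from the first and last stretches. The counts were not scaled to the room left in each. The median distance from the gene's outer 5′ end was 19.4 kb. The distance to the nearest protein-coding end lay between 2509 and 711920 bp, with a median of 8651 bp, and 112 peaks lay from 2.5 to 5 kb, 105 from 5 to 10 kb, 109 from 10 to 30 kb, 58 from 30 to 100 kb and 29 further than 100 kb away.

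Just inside the limit of 2.5 kb were peaks in Pglyrp2 (2504 bp from an end, score 303), Grm2 (2509 bp, score 351) and Abhd8 (2522 bp, score 219). Just outside it were peaks in Soga3 (2498 bp, score 437), Kcnk10 (2452 bp, score 810) and Arhgap27 (2434 bp, score 181). The scores on the 2 sides overlap.

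Most intragenic peaks stood apart from other peaks. The gap to the next peak of any class was a median of 41263 bp, and it was over 100 kb for 154 of 413 (37.3%). It was 1 kb or less for 48 and from 1 to 3 kb for 42. A gene-end peak lay within 3 kb of 47 (11.4%, 8.48 to 14.8%), those in Pax2, Lhx9, Sim1, Sim2 and Spag6 among them.

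Genes that carried a Suz12 peak at an end held an intragenic peak more often than genes that did not. A gene end peak was present in 155 of the 359 hosts (43.2%, 38.0 to 48.5%), against 1925 of the 16231 other genes with intragenic space (11.9%, 11.4 to 12.4%). Of genes with an end peak, 155 of 2080 (7.45%, 6.36 to 8.67%) were hosts, and of genes without, 204 of 14510 (1.41%, 1.22 to 1.61%). In 119 hosts with an end peak and a known strand, the peak was at the start only in 88 (73.9%, 65.1 to 81.6%), at the far end only in 14 and at both in 17. A peak within 2.5 kb of an end can belong to a neighbouring gene.

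Long genes offer more room for a peak, so the shares were also taken by gene length. Hosts were longer than other genes with intragenic space, with a median of 58.8 kb (49.9 to 69.7) against 26.3 kb for all of them. From 20 to 50 kb, 53 of 479 genes with an end peak (11.1%, 8.40 to 14.2%) were hosts, against 52 of 4554 without (1.14%, 0.854 to 1.49%). From 50 to 100 kb the shares were 9.91% (32 of 323) and 1.69% (37 of 2191), and from 100 to 200 kb 7.46% (20 of 268) and 2.99% (35 of 1169). Above 200 kb they were 8.86% (28 of 316, 5.97 to 12.6%) and 6.53% (44 of 674, 4.78 to 8.67%), and the intervals overlap. The share without an end peak thus rose with length, and the share with an end peak did not rise beyond 20 to 50 kb.

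**Figure D4:**
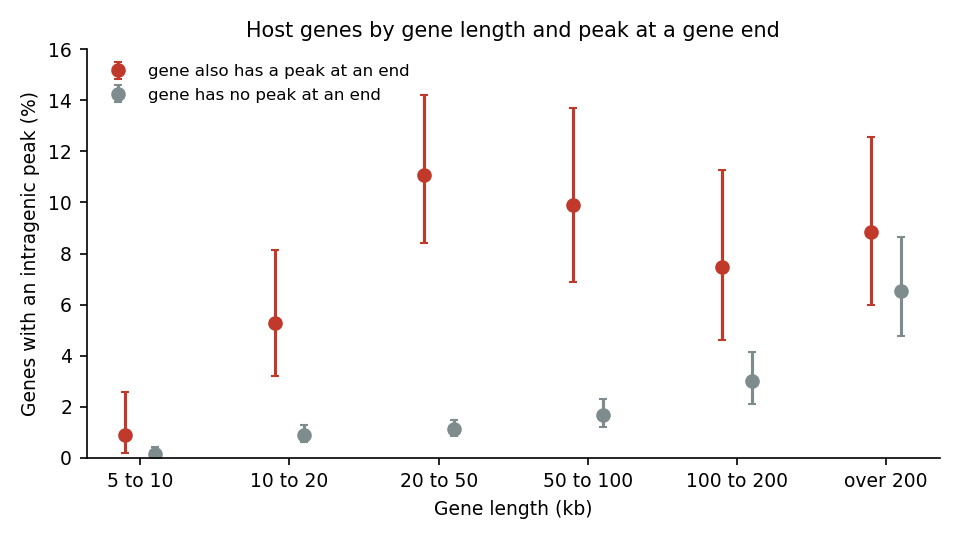
Share of protein-coding genes with an intragenic Suz12 peak (y axis, percent) by gene length (x axis, kb), for genes that also have a Suz12 peak at an end (red) and genes that have none (grey). Points are shares and bars exact 95% binomial intervals. From 20 to 50 kb the shares are 11.1% and 1.14%, and above 200 kb they are 8.86% and 6.53% with overlapping intervals.

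The end peaks of hosts also scored higher than those of other genes. The best end peak had a median score of 984 (745 to 1425) in the 155 hosts and 596 (561 to 626) in the 1925 other genes with intragenic space and an end peak, and a score of 3100 or more in 39 (25.2%, 18.5 to 32.8%) and 193 (10.0%, 8.72 to 11.5%). The best intragenic peak scored above the gene's best end peak in 55 of 155 hosts, equal to it in 5 and below it in 95. The other 204 hosts, with 223 of the 413 intragenic peaks (54.0%), had no peak at an end. Among them were Lhx4, Runx1, Runx2, Nr5a2, Esrrb, Siglec15, Otud7a, Pdgfb, Slc30a3, Tnxb, Myorg and Bcor. At the first listed start, hosts with an end peak were CpG-rich in 83 of 119 (69.7%, 60.7 to 77.8%), and hosts without one in 80 of 170 (47.1%, 39.4 to 54.9%), against 7410 of 13221 genes with intragenic space (56.0%). In 15 and 38 of these hosts, respectively, the first listed start itself lay inside an intragenic peak. Without them, 72 of 104 (69.2%, 59.4 to 77.9%) and 51 of 132 (38.6%, 30.3 to 47.5%) were CpG-rich.

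Host genes were 2.16% of the 16590 protein-coding genes with intragenic space, and 1.66% of all 21631 protein-coding genes. On the 16 gene lists used here they were 140 of 1391 genes (10.1%), against 219 of the 15199 genes on no list (1.44%). The lists were chosen with earlier results of these data known, so the contrast describes these peaks and is not independent support. The median length of list genes with intragenic space ran from 17.4 to 152 kb between lists, against 26.3 kb over all such genes, and lists were not matched on length or CpG content. The order of the lists depends on the settings: with a distance of 5 kb homeobox genes (12 of 57, 21.1%) stood above synaptic genes (15 of 88, 17.0%), and with 10 kb the pluripotency list (3 of 16) stood above both.

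Developmental transcription factors were frequent hosts. On the homeobox list 16 of 91 genes (17.6%, 10.4 to 27.0%) held an intragenic peak, and 15 of the 16 also had a peak at an end, Lhx4 being the exception. End peaks were common on this list as a whole: 60 further genes had an end peak alone, and 15 had neither kind. After Lhx4, Pax2 and Lhx9, the highest were Onecut3, a cut-homeobox factor, with a score of 1934, and Lmx1b with 1495. The median length of these list genes, 22.4 kb, was below that of all genes with intragenic space. Among other developmental transcription factors 30 of 159 (18.9%, 13.1 to 25.8%) were hosts, led by Nfix, Runx2, Sim1, Nr5a2 and Esrrb. Of these hosts 21 had an end peak, while 79 further genes of the list had an end peak alone and 50 had neither kind. The median length of the genes on this list was 56.0 kb. Of the pluripotency genes 4 of 34 (11.8%, 3.30 to 27.5%) were hosts: Nr5a2 and Esrrb at 3100, Tbx3, a T-box factor, at 410, and Prdm1, a factor of germ cell precursors, at 183. All 4 are also hosts on the list of other developmental transcription factors, so the 2 lists do not give separate counts.

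Neuronal genes of other kinds were frequent hosts too. Of the synaptic scaffold and release genes 19 of 92 (20.7%, 12.9 to 30.4%) held an intragenic peak, 13 with an end peak. A further 28 had an end peak alone and 45 had neither kind. The list also holds neuronal RNA-binding and splicing factors of the Celf, Elavl, Nova and Rbfox families, which counted 5 hosts of 13, and without them, a split made after the values were seen, it counted 14 of 79 (17.7%, 10.0 to 27.9%). Beside Agap2 and Shank1 the highest were Rbfox3, the neuronal splicing factor known as NeuN, at 2591, Nrxn2, a presynaptic neurexin, at 2295, and Apba1, an adaptor of synaptic release, at 1740. Of the ion channels 13 of 113 (11.5%, 6.27 to 18.9%) were hosts, and 2 of the 13 had a peak at an end, against 43.2% of all hosts. The cyclic nucleotide and matrix lists were similar in this, with 3 of 11 and 1 of 5, and no difference between lists was tested. Among the highest were the potassium channel Kcna2 (2016), the calcium release channel Ryr1 (1331), and the calcium channels Cacna1c (1067) and Cacna1e (819). A channel gene without an end peak can still have Suz12 over its start. In Kcna2, Cacna1e and Kcnj3 the intragenic peak covered the only listed start of the gene. In Ryr1 and Ano1, also without an end peak, the only listed start was not covered. Peaks at an end alone were held by 60 further channel genes. The median length on the channel list was 69.9 kb.

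Receptors for neurotransmitters and neuropeptides counted 10 hosts of 106 (9.43%, 4.62 to 16.7%), led by the GABA receptor subunit Gabra5 (1195), the kainate receptor subunit Grik4 (773), the corticotropin-releasing hormone receptor Crhr2 (619), the nicotinic subunit Chrna4 (464) and the glutamate receptor Grm2 (351). Axon guidance and adhesion genes counted 14 of 141 (9.93%, 5.54 to 16.1%), led by the synaptic adhesion gene Lrrtm1 (1523), Sema5b (1482), a semaphorin, Ntng1 (1476), a netrin relative, Cdh13 (898), a cadherin, and the Eph receptor Epha10 (743). The Lrrtm1 peak also lies in Ctnna2, which overlaps it. Median lengths were 51.0 kb on the receptor list and 148 kb on the axon guidance list.

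Among signalling genes the shares ran from 3.85% to 10.7%. Cyclic nucleotide and small GTPase genes counted 11 of 103 (10.7%, 5.45 to 18.3%), with Pde10a (1706), Pde8b (1225), Plch2 (1088), Rgs20 (658) and Arhgap26 (602) highest, and their median length of 152 kb was the longest of the lists. The list of Wnt, BMP, TGF-beta, FGF, hedgehog and Notch genes counted 8 of 121 (6.61%, 2.90 to 12.6%). These were 6 Wnt ligands and 2 members of the intracellular FGF group, with Wnt5a (2549), Fgf12 (2428), Wnt3 (1585), Wnt9b (887) and Wnt10a (318) highest. Other receptor tyrosine kinases and growth factors counted 3 of 61 (4.92%, 1.03 to 13.7%): Pdgfb at 3100, Pdgfa at 553 and the neurotrophin Bdnf at 241. On the retinoic acid list 1 of 26 genes (3.85%, 0.0973 to 19.6%) was a host: Cyp26b1, an enzyme that breaks down retinoic acid, with peaks of 5004 bp and 1686 bp that scored 1343 and 189.

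Among structural and general genes the shares were at most 7.81%. Matrix genes counted 5 of 125 (4.00%, 1.31 to 9.09%), with Tnxb at 3100, the brain proteoglycan Ncan at 2505, the collagen Col8a2 at 757, the gelatinase Mmp9 at 734 and the protease Adamts20 at 513. Cytoskeletal and muscle genes counted 5 of 64 (7.81%, 2.59 to 17.3%): the cytolinker Plec (2553), Sptbn4 (876), Epb41l3 (362), Epb41l1 (324) and the myosin Myo7a (261). Of the Polycomb and chromatin regulators 3 of 55 (5.45%, 1.14 to 15.1%) were hosts, all with low scores: Auts2 at 287, Bmi1 at 162 and Smarcd3 at 152. The imprinted genes Gnas, a stimulatory G protein locus with several promoters, and Grb10, a growth inhibitor, scored 2667 and 290 and were the 2 hosts of 29 (6.90%, 0.846 to 22.8%). None of the 88 housekeeping and ribosomal protein genes with intragenic space held an intragenic peak, which allows a share of up to 4.11%.

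**Figure D5:**
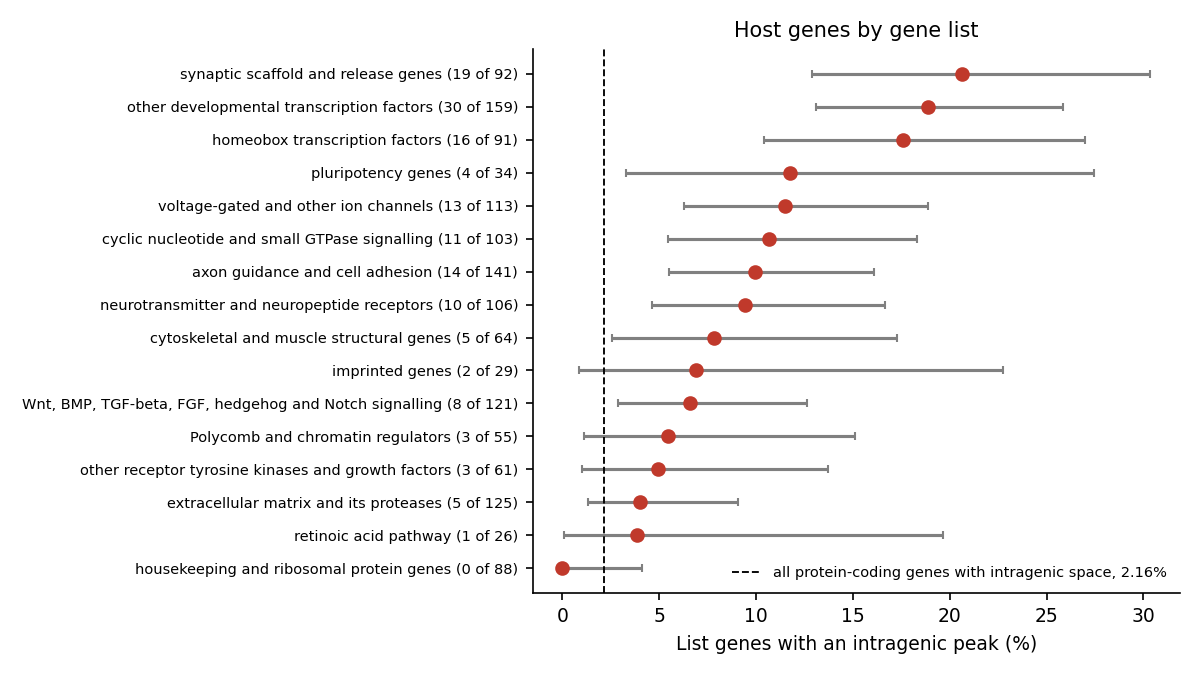
Share of list genes with intragenic space that hold an intragenic Suz12 peak (x axis, percent), for 16 gene lists (y axis, with hosts and genes counted). Points are shares, bars exact 95% binomial intervals and the dashed line is the share over all protein-coding genes with intragenic space, 2.16%. Synaptic genes, other developmental factors and homeobox genes are at 20.7%, 18.9% and 17.6%, with bars that overlap, and the bars of 6 lists cross the line.

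Of the miRNA hairpins in the annotation, 2 lay inside intragenic peaks. Their mature sequences in RefSeq, 5′ to 3′ with the seed (bases 2 to 8) in capitals, show that they share no seed.
mmu-miR-6402, in Elavl2, minus strand: gAGCAGUUuucccaggaacccgc
mmu-miR-7240-5p, in Mast3, plus strand: uUGGAGAGgaccgccgucgga
mmu-miR-7240-3p, in Mast3, plus strand: cGCCGUUGguccucuccaaca

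The peak over Mir6402 lay in Elavl2, an RNA-binding protein of neurons, with 2581 bp and a score of 1189, and it also covered 3 listed starts of Elavl2 that held 25 to 27 CG pairs each. The peak over Mir7240 lay in Mast3, a microtubule-associated kinase gene on the minus strand, opposite to the hairpin, with 1792 bp and a score of 777. It covered no listed start. The peaks do not tell whether Suz12 there relates to the miRNA, to the host or to neither.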

How the data were processed

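Suz12 ChIP-seq of 1 wild-type library was used as deposited: the authors' peak list with a score per peak. Bowtie, MACS and the build GRCm38 (mm10) are named, without versions, per the submitters' processing notes. The sources used here do not give parameters, the control or any pooling. Peaks were placed on the 21631 protein-coding and 12697 lncRNA genes of a RefSeq GRCm38 table, with starts made 1-based. The table gives outer gene ends without exons, so a peak in an exon was not separated from a peak in an intron. RefSeq start windows (21045 starts of 17274 protein-coding genes) gave the strand for 289 of 359 hosts. Named genes are the hosts of the 20 highest-scoring and 10 widest peaks, genes with 3 or more, up to 5 top hosts per list, miRNA hosts and 3 peaks on each side of the 2.5 kb limit. Some genes that the rule names are not reported here. The peaks, lists and rule were chosen with earlier results of these data known, and the analysis of internal starts was added after seeing the data. Peak classing was checked on 200 simulated peaks, all 200 recovered. No test was made, because 1 library allows none. Python 3.11.15, pandas 2.3.3, SciPy 1.17.1 and matplotlib 3.10.9 were used.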

Additional observations from a re-analysis of the deposited data

How the results depend on the processing

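Over 243 alternative values, 169 stayed within the interval of the reported value (counts within 1.5 times) and 74 moved. The 169 include all values from the setting that asks for a peak midpoint inside the gene. That setting could change nothing, because all 413 peaks lie wholly inside a gene body. Of the 74, 38 are host counts of single gene lists, given last. With a distance to gene ends of 1 kb the hosts were 541, 35.7% of them with an end peak, 11.8% of list genes were hosts and 11.6% of CpG-rich internal starts were covered. With 5 kb, 48.8% of hosts had an end peak and 7.56% of peaks were joined to a gene-end peak. With 10 kb there were 174 peaks in 157 hosts, 3.45% at 3100 or more, 51.0% of hosts with an end peak, 2.30% joined, 6.87% of list genes as hosts, 37.0% of peaks over an internal start and 18.4% of CpG-rich starts covered. With protein-coding ends only, 11.8% of list genes were hosts. With scores at or above the median of all peaks there were 175 peaks in 161 hosts, a median width of 2444 bp, a median score of 1195, 13.1% at 3100 or more, 33.5% of hosts with an end peak, 5.32% of list genes as hosts, and 6.69% of CpG-rich and 0.925% of CpG-poor internal starts covered. With scores of at least 300.6, the median width was 2002 bp and the median score 704, with 37.0%, 7.76%, 11.1% and 1.20% for the last 4 of these shares. A joining gap of 1 kb gave 4.60% joined and 10 kb gave 22.3%. A CpG ratio of 0.75 gave 33.6% CpG-rich hosts and 3.67% of CpG-poor starts covered, and 0.45 gave 66.8% and 1.08%. The distance, end and score settings change which peaks and genes enter, and the joining gap and CpG ratio change only the call. The counts of list hosts moved for 11 lists at 10 kb, for 12 at scores at or above the median, for 5 at scores of at least 300.6, for 4 at 1 kb, for 3 with protein-coding ends only, for 2 at 5 kb and for 1 with ends of genes of any kind. The lowest and highest counts were 5 and 21 for homeobox factors (16 reported), 14 and 41 for other developmental factors (30), 9 and 21 for synaptic genes (19), 7 and 20 for ion channels (13), 3 and 13 for receptors (10), 4 and 19 for axon guidance (14), 6 and 13 for cyclic nucleotide genes (11), 4 and 13 for the Wnt to Notch list (8), 3 and 8 for matrix (5), 2 and 5 for cytoskeletal (5), 2 and 4 for pluripotency (4), 1 and 7 for growth factors (3), 0 and 5 for Polycomb (3), 1 and 4 for imprinted (2) and 0 and 1 for retinoic acid genes (1). CpG-rich internal starts were covered more often than CpG-poor ones under every setting run. The alternatives for internal starts were added after seeing the data. No paired analysis was possible because each group has 1 library and 1 peak list was used, and for the same reason no replicate could be left out. The depth is unknown, so weaker Suz12 signal under the calling threshold may exist in genes that have no peak.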

Other observations

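Families of related genes were chosen after their values were seen and are given as counts only, with no comparison between them. Over all genes with intragenic space 2.16% were hosts, and 43.2% of hosts had a peak at an end. All 3 Runx genes with intragenic space were hosts, 1 of them with a peak at an end, and both Sim genes were hosts with end peaks. Of the Pax genes 5 of 9 were hosts (Pax2, Pax3, Pax5, Pax6 and Pax9), of the T-box genes 5 of 16, and of the Lhx, Lmx and Isl genes 6 of 12. All Pax and T-box hosts also had a peak at an end. All 3 Shank scaffold genes were hosts, with scores of 3100 for Shank1, 378 for Shank3 and 159 for Shank2. Of the 10 Cacna1 calcium channel genes 4 were hosts (Cacna1a, Cacna1c, Cacna1d and Cacna1e), and none of the 4 had a peak at an end. In Cacna1e, however, the intragenic peak covered the only listed start of the gene. Of the nuclear factor I genes 1 of 4, Nfix, was a host.

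Fgf12, an intracellular member of the FGF family, held 2 intragenic peaks over 3 listed starts in a gene of 595 kb with no peak at an end. The peak with the higher score, 2428, covered a start with 22 CG pairs 307 kb from the gene's outer start. The other, with a score of 304, covered starts with 29 and 34 CG pairs.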
